A study of Mus musculus with 13 samples.

Results

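The genes described here are 10 markers of T cells and natural killer (NK) cells: Cd3e, Cd3d, Cd3g, Cd4, Cd8a, Cd2, Nkg7, Gzma, Gzmb and Cxcr6. They were chosen by symbol, with earlier results of these data known, and each matched 1 row of the deposited expression table, which lists 53465 genes. The table gives bulk RNA-seq values as TPM (the share of a library taken by a gene after scaling for its length, summing to 1000000) for 3 wild-type (WT) ovaries and 10 MP tumors. Libraries are written WT 1 to WT 3 and MP 1 to MP 10. The WT ovaries came from non-treated C57BL/6 mice. The MP tumors were also non-treated and arose in C57BL/6 females after electroporation of the ovary at 8 to 12 wk of age, a procedure named EPO-GEMM. The vectors carried Cas9 with a guide RNA to Trp53, a transposon expressing MYC, and the Sleeping Beauty transposase. As a model this has limits that bear on every value below: electroporation does not select a cell type, the tumors are oligoclonal, the hosts are immune competent, and whole tumor tissue at endpoint was sequenced with the host cells in it. The age of the WT mice was not given in the sources used here.

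T cells recognize antigen through the T cell receptor, whose signal is carried into the cell by the CD3 chains (Cd3e, Cd3d and Cd3g). The coreceptor Cd4 marks helper T cells and, in mice, is also found on some myeloid cells, while Cd8a marks cytotoxic T cells and a subset of dendritic cells. NK cells lack the T cell receptor but share with cytotoxic T cells the granule proteins Nkg7, Gzma and Gzmb, the adhesion molecule Cd2 and the chemokine receptor Cxcr6, which binds the membrane-bound chemokine Cxcl16. The comparison asked which of these transcripts differ between tumor and ovary, and how many reads stand behind each value.

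The libraries differed in depth, and this sets what can be said of genes at such low levels. Reads worked back from the table came to between 31445004 and 64013840 in a WT ovary and between 3892690 (MP 5) and 19906507 (MP 3) in an MP tumor, so each WT ovary was deeper than any tumor. One read in a transcript of 1 kb was worth between 0.0513 TPM (WT 3) and 0.790 TPM (MP 5). The labels carry an IGO number, one shared by the 3 WT ovaries and MP 1 to 3, another by MP 4 to 6 and another by MP 7 to 10, so condition and number can be told apart only among the 6 libraries that share the number of the ovaries. MP 2 stood apart, with 55.1% of its TPM in 10 genes. Trp53 was at 80.7 to 85.4 TPM in WT ovaries and at 4.30 to 25.99 TPM in 9 tumors, but at 187 TPM in MP 10. Edited alleles can still be transcribed, so this level does not check the label. The tissue labels were looked at through marker genes: Cyp11a1, a steroid-making enzyme of the ovary, was at 6487 TPM or more in each WT ovary and at 221 TPM or less in each tumor. The epithelial marker Epcam was at 35.3 to 48.6 TPM in the ovaries and at 0.348 to 15.7 TPM in the tumors. The epithelial keratins Krt8 and Krt18 overlapped between the groups, at 60.7 to 68.0 and 50.3 to 58.4 TPM in the ovaries. In the tumors they ran from 0.590 to 425 TPM and from 2.06 to 496 TPM.

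Over all 10 tumors the markers were backed by 421 reads out of 101236807, and over the 3 ovaries by 1872 reads out of 145980864. Of the 100 values that 10 genes have in 10 tumors, 30 rest on 0 reads and 67 on at most 3 reads. In the ovaries the fewest reads behind a value were 8, for Nkg7 in WT 2. The plot of reads by gene and library shows this thin support in the tumors. In bulk tissue fewer cells of a type and less RNA per cell cannot be told apart, and TPM is a share, so every level below is relative to the other transcripts of the same library.

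**Figure D1:**
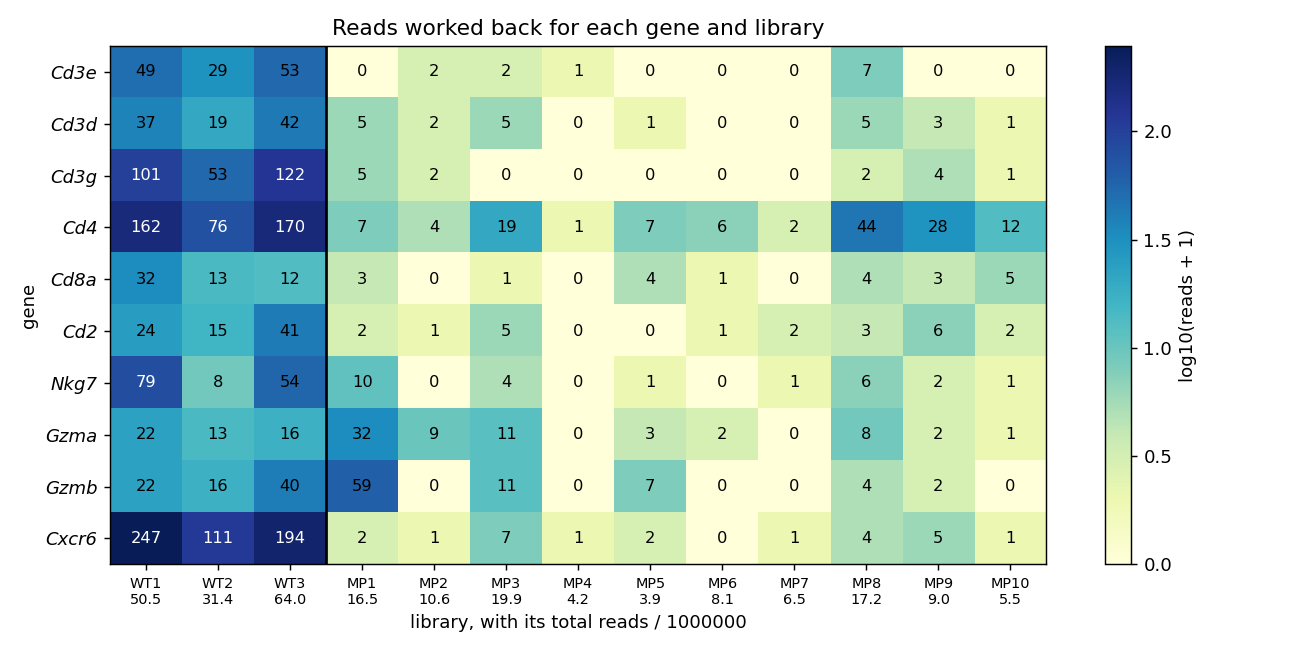
Reads worked back for each of the 10 genes (rows) in each of the 13 libraries (columns, with total reads in units of 1000000 below each name); the vertical line separates WT ovaries from MP tumors and the colour is log10(reads + 1). Tumor entries run from 0 to 59 reads, and only Cd4, Nkg7, Gzma and Gzmb reach 10 reads in any tumor.

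The CD3 genes and Cxcr6 are shown with their promoters, because these 4 genes were lower in every tumor than in every ovary, and Gzmb is shown beside them because it was not. Cd3d and Cd3g lie head to head on chromosome 9, with starts 1355 bases apart, and Cd3e is their neighbour. Promoter sequences run from 250 bases before to 50 bases after each gene's start and are RefSeq sequences on GRCm38.p6, printed 5′ to 3′ on the gene's strand. They matched 8 of the 10 genes; Cd4 and Cd2 have none here. Capitals mark each match to the letter pattern TGNGGT, with N any base, on either strand (ACCNCA when read on the opposite strand).
Cd3e, chr9:45009562-45009861, minus strand: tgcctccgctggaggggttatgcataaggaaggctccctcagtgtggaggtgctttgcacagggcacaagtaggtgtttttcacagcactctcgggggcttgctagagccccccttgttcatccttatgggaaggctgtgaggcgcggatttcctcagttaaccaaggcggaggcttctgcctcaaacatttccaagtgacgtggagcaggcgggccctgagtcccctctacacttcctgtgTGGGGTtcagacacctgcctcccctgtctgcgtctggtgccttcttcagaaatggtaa
Cd3d, chr9:44981536-44981835, plus strand: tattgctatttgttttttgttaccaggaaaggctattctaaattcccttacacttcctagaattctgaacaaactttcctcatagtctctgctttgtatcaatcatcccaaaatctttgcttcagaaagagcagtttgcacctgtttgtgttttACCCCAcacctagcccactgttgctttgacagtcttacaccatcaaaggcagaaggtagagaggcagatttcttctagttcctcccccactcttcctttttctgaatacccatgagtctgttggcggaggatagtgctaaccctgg
Cd3g, chr9:44980382-44980681, minus strand: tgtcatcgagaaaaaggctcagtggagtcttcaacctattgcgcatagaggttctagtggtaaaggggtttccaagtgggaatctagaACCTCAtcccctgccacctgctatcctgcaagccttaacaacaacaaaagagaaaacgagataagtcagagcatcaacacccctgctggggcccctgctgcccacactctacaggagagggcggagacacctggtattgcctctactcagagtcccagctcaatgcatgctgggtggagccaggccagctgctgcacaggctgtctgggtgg
Cxcr6, chr9:123806227-123806526, plus strand: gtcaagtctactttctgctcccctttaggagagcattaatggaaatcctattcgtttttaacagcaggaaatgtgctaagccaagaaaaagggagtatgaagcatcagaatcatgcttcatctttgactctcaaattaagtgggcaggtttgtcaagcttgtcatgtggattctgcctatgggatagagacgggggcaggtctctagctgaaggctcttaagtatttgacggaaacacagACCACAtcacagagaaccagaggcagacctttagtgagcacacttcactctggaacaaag
Gzmb, chr14:56262285-56262584, minus strand: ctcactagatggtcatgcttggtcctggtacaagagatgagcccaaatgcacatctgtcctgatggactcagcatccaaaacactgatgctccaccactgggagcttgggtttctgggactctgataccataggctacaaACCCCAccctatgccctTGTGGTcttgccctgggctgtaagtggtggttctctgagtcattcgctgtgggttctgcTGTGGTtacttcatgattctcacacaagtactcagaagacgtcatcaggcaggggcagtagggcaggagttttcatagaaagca

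Each of the 8 promoters held at least 1 match to TGNGGT, 12 in all, while 45.8% of 32851 mouse promoters of the same length hold one. The 12 matches overlapped no match of the other motifs searched. The E-box CANNTG was found in 8 of 8 (72.3% of all promoters), the ETS core GGAA in 7 of 8 (96.0%, with Gzmb the one without), and TATAAA in 0 of 8 (13.6%). These are letter matches that describe the printed windows.

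The 3 CD3 chains were lower in the tumors, and the groups did not overlap for any of them. Cd3e (ENSMUSG00000032093, GRCm38 chr9:44998740-45009627) was at 0.809, 0.772 and 0.666 TPM in WT 1, 2 and 3 (49, 29 and 53 reads). In the tumors it ranged from 0 to a median of 0 and a maximum of 0.280 TPM, with 12 reads in all, of which MP 8 held 7, and with 0 reads in 6 tumors. A count of 0, read as allowing up to 3 reads, leaves room for 0.102 to 0.581 TPM in those 6 tumors, which is below the lowest ovary in all 6. Cd3e overlaps the annotated genes Gm48719 and Gm48720, and which strand was counted was not given in the sources used here. Cd3d (ENSMUSG00000032094, chr9:44981786-44987339) was at 1.37, 1.14 and 1.19 TPM in the ovaries (37, 19 and 42 reads). Its tumor values ran from 0 through a median of 0.334 to 0.622 TPM, on 22 reads in all and 0 reads in 3 tumors. Cd3g (ENSMUSG00000002033, chr9:44969572-44980431), the chain with the most reads in the ovaries, was at 2.08, 1.76 and 1.91 TPM there (101, 53 and 122 reads). Its tumor values ran from 0 through a median of 0.050 to 0.460 TPM on 14 reads in all, with 5 tumors at 0.

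The depth behind these chains was not equal, and the counting error was set against the gap. For Cd3g, the exact Poisson 95% interval of every one of the 10 tumors ended below the lowest interval of the ovaries. For Cd3e this held in 6 of 10 tumors and for Cd3d in 0 of 10. For Cd3d, 6 of 10 intervals ended below the lowest ovary's value. These intervals cover counting error only. The mean of Cd3g was 1.92 ± 0.16 TPM (SD, n = 3) in the ovaries and 0.108 ± 0.150 TPM (SD, n = 10) in the tumors, a ratio of 17.8. The same ratio of means was 13.3 for Cd3e and 4.47 for Cd3d.

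Differences were tested with limma on log2(TPM + 1), with P values adjusted by the Benjamini-Hochberg method over all genes and a threshold of 0.05. Adding 1 shrinks the fold change of genes as low as these. A filter that asks for 1 TPM or more in 3 or more libraries keeps 7 of the 10 genes, and 3 of those (Cd3d, Cd3g and Cxcr6) pass through the ovaries alone, so they had to differ. The count is therefore given from the fit of all 32961 genes with a read, in which every member was tested. There 5 of the 10 genes were lower in tumors (Cd3e, Cd3d, Cd3g, Nkg7 and Cxcr6) and 0 were higher, against 11.0% of all genes lower and 1.14% higher. In the same fit the median log2 fold change was -0.78 over the 10 genes and -0.07 over all genes. Among genes past the filter, 14.3% of 17277 were lower and 2.51% higher, and the median of all of them was a log2 fold change of -0.58, which median-of-ratios scaling moved to -0.02. Under that scaling with every gene tested, a fit added after seeing the data, 3 of the 10 (Cd3e, Cd3g and Cxcr6) were lower and 0 higher, against 8.46% of all genes lower and 3.18% higher. The groups did not overlap for 4 of the 10 (every tumor below every ovary), against 11.4% of all genes with a read.

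**Figure D2:**
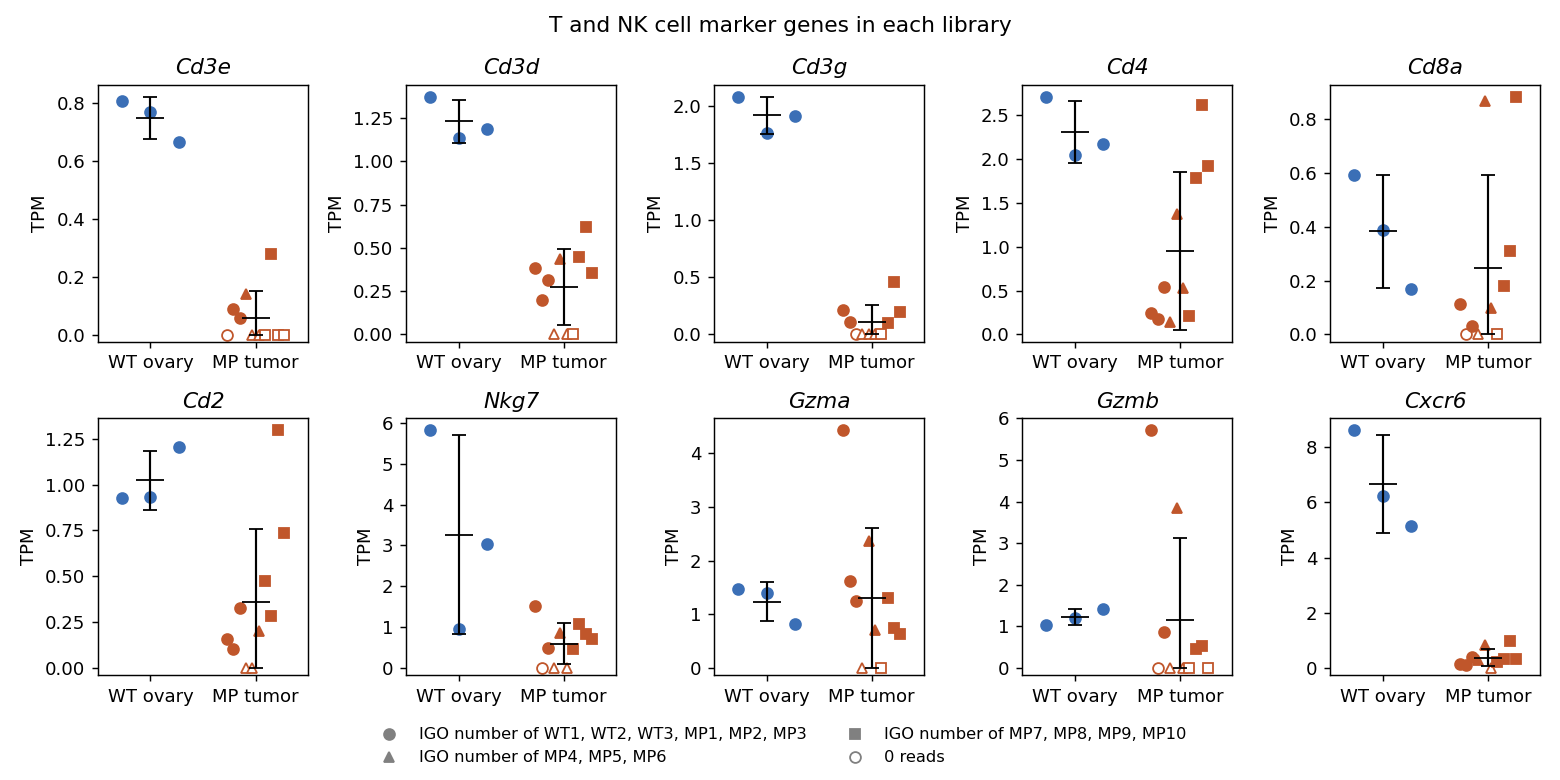
TPM of each gene in each library, with the mean and 1 SD (lower bars end at 0); marker shapes give the IGO number and open symbols have 0 reads. The tumor points of Cd3e, Cd3d, Cd3g and Cxcr6 all lie below the ovary points, whereas MP 1 and MP 5 lie above every ovary for Gzma and Gzmb.

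In that fit the log2 fold change was -0.73 for Cd3e (SE 0.11, limma adjusted P = 0.000455), -0.83 for Cd3d (SE 0.19, limma adjusted P = 0.0125) and -1.41 for Cd3g (SE 0.16, limma adjusted P = 4.8e-05). Among the 6 libraries that share the IGO number of the ovaries, tested on every gene with a read after seeing the data, 6 of the 10 genes were lower (Cd3e, Cd3d, Cd3g, Cd4, Cd2 and Cxcr6) and 0 higher, against 34.3% of all genes lower and 3.04% higher, with a median log2 fold change of -0.24 over all genes. The log2 fold change there was -0.74 for Cd3e, -0.78 for Cd3d and -1.40 for Cd3g (limma adjusted P = 0.00527, 0.00917 and 0.000881). Among the genes past the filter the shift was larger, with 57.3% lower and a median of -1.19. With every gene tested, Cd3d did not pass when the libraries were scaled by median of ratios (log2 fold change -0.49, limma adjusted P = 0.141) or without WT 1 (log2 fold change -0.78, limma adjusted P = 0.0709). In limma-voom on the worked-back reads of every gene with a read, a fit added after seeing the data, 3 of the 10 genes were lower (Cd3e, Cd3g and Cxcr6), against 12.6% of all genes, while the median of all genes in that fit was a log2 fold change of 0.91.

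Cxcr6 (ENSMUSG00000048521, chr9:123806475-123811760), the receptor for Cxcl16, had the largest fitted difference of the 10 genes. It was at 8.61, 6.24 and 5.15 TPM in WT 1, 2 and 3 (247, 111 and 194 reads). In the tumors it ran from 0 in MP 6 through a median of 0.315 to 0.974 TPM in MP 9, on 24 reads in all. No tumor reached the ovaries, and every tumor's Poisson interval ended below theirs. The means were 6.67 ± 1.77 TPM (SD, n = 3) and 0.363 ± 0.310 TPM (SD, n = 10), a ratio of 18.4. The log2 fold change was -2.50 (SE 0.26, limma adjusted P = 2.0e-05) with every gene tested. Cxcr6 lies on the opposite strand inside an intron of Fyco1, and the strand setting of the counting was not given in the sources used here. Fyco1 was at 28.0 to 35.8 TPM in the ovaries and 1.43 to 18.98 TPM in the tumors, and its part in the Cxcr6 value was not tested.

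The ligand Cxcl16 was at 30.4, 23.1 and 33.3 TPM in the ovaries and ran from 5.29 to 30.89 TPM in the tumors. It overlapped between the groups, and it did not pass (log2 fold change -1.10, SE 0.46, limma adjusted P = 0.112 among genes past the filter). Among the libraries with the IGO number of the ovaries it passed, at -1.55 (limma adjusted P = 0.00205), beside a median of -1.19 and 57.3% of genes lower in that fit, and MP 1, 2 and 3, at 10.8, 7.57 and 9.25 TPM, lay below every ovary. Cd48, a ligand in the mouse for Cd2 and for the NK receptor Cd244, was at 19.7 to 30.0 TPM in the ovaries and at 3.37 to 19.28 TPM in the tumors (limma adjusted P = 0.0794), so the groups did not overlap but the test was not passed.

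Fitted over all libraries without a covariate, the coreceptors did not pass. Cd4 (ENSMUSG00000023274, chr6:124864692-124888221) was the member with the most reads in the tumors, 130 in all, and none of the 10 was at 0. It was at 2.71, 2.05 and 2.16 TPM in the ovaries (162, 76 and 170 reads) and ran from 0.142 in MP 4 through a median of 0.533 to 2.61 TPM in MP 9. In all, 9 of 10 tumors were below every ovary, with MP 9 inside the ovary range, and the log2 fold change was -0.88 (SE 0.39, limma adjusted P = 0.174). By IGO number it was at 0.179 to 0.538 TPM in MP 1 to 3, 0.142 to 1.37 TPM in MP 4 to 6, and 0.205 to 2.61 TPM in MP 7 to 10. Among the libraries with the IGO number of the ovaries Cd4 passed, at -1.33 (SE 0.20, limma adjusted P = 0.000828), in a fit where 57.3% of genes were lower and the median log2 fold change was -1.19. Over all libraries with IGO number as a covariate Cd4 also passed (log2 fold change -1.33, limma adjusted P = 0.0180), where 49.4% of genes were lower. Cd8a (ENSMUSG00000053977, chr6:71373427-71379173) was at 0.592, 0.388 and 0.169 TPM in the ovaries (32, 13 and 12 reads) and ran from 0 through 0.106 to 0.884 TPM in the tumors, on 21 reads in all. The groups overlapped, with MP 5 and MP 10 above every ovary on 4 and 5 reads. Its log2 fold change was -0.18 (SE 0.22, limma adjusted P = 0.706), and a difference was not detectable at this depth.

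Cd2 (ENSMUSG00000027863, chr3:101275899-101287939), an adhesion molecule of T and NK cells, was at 0.928, 0.935 and 1.21 TPM in the ovaries (24, 15 and 41 reads). It ran from 0 through 0.243 to 1.30 TPM in the tumors, on 22 reads. Here 9 of 10 tumors lay below the ovaries and MP 9 lay above them, and the log2 fold change of -0.62 (SE 0.24) did not pass (limma adjusted P = 0.124). In the 2 tumors at 0 a count of 0 still allows 0.987 and 1.36 TPM, which reaches the ovary range. Cd2 passed without MP 9 (log2 fold change -0.71, limma adjusted P = 0.0253) and within the IGO number of the ovaries (log2 fold change -0.76, limma adjusted P = 0.0110), in the fits of every gene with a read.

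The granule genes split. Nkg7 (ENSMUSG00000004612, chr7:43437073-43438249), a membrane protein of cytotoxic granules, was at 5.82, 0.950 and 3.03 TPM in WT 1, 2 and 3 (79, 8 and 54 reads), the widest spread among the ovaries of any of the 10 genes. In the tumors it ran from 0 through 0.601 to 1.52 TPM in MP 1, on 25 reads in all. The groups overlapped through WT 2, although 10 of 10 tumors were below the ovary mean of 3.27 TPM. The log2 fold change was -1.31 (SE 0.38, limma adjusted P = 0.0384). It did not pass without WT 1 (log2 fold change -0.88, limma adjusted P = 0.243), without WT 3 (log2 fold change -1.26, limma adjusted P = 0.126), without any one of MP 2, 3, 4, 6 and 7 (limma adjusted P from 0.0528 to 0.0613), within the IGO number of the ovaries (limma adjusted P = 0.111) or under median-of-ratios scaling (limma adjusted P = 0.165).

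The granzymes Gzma and Gzmb, serine proteases that kill target cells, did not pass the test. Gzma (ENSMUSG00000023132, chr13:113093825-113100981) was at 1.47, 1.40 and 0.816 TPM in the ovaries (22, 13 and 16 reads). In the tumors it ran from 0 in MP 4 and MP 7 through a median of 0.998 to 4.43 TPM in MP 1, on 68 reads in all. Gzmb (ENSMUSG00000015437, chr14:56258838-56262260) was at 1.03, 1.21 and 1.43 TPM in the ovaries (22, 16 and 40 reads). In the tumors it ran from 0 in 5 tumors through a median of 0.227 to 5.72 TPM in MP 1, on 83 reads, of which MP 1 held 59. The values of MP 1 and MP 5 were above every ovary for both genes, as was MP 2 for Gzma at 1.61 TPM. Only MP 1 had a Poisson interval above those of the ovaries, for each of the genes, and the MP 5 values rest on 3 reads for Gzma and 7 reads for Gzmb. The tumor means, 1.30 ± 1.31 TPM for Gzma and 1.14 ± 1.99 TPM for Gzmb (SD, n = 10), were close to the ovary means of 1.23 ± 0.36 and 1.22 ± 0.20 TPM (SD, n = 3), while the tumor spread was wider. The log2 fold change was -0.12 for Gzma (SE 0.44, limma adjusted P = 0.885), turning to 0.31 under median-of-ratios scaling, and -0.44 for Gzmb (SE 0.56, limma adjusted P = 0.712).

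**Figure D3:**
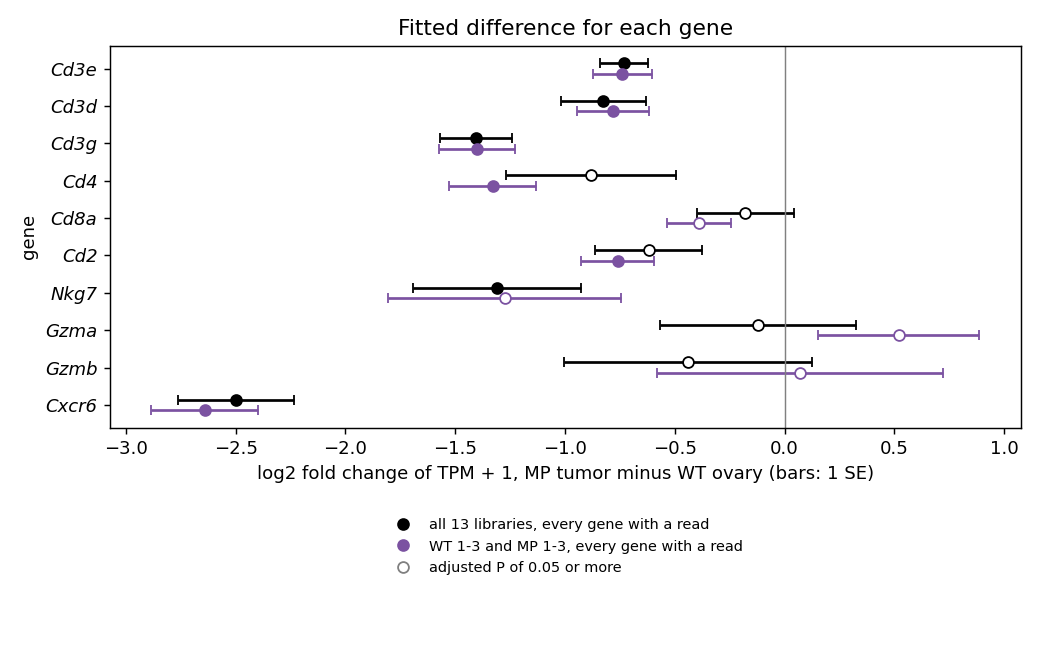
Fitted log2 fold change of TPM + 1 (MP tumor minus WT ovary) with 1 SE for each gene, in all 13 libraries (black) and within the IGO number of the ovaries (purple), with every gene tested in both; open symbols have an adjusted P of 0.05 or more. Cxcr6 and Cd3g lie farthest from 0 in both fits, and Gzma and Gzmb straddle 0.

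The tumors with the most Gzma and Gzmb also stood apart in the neighbouring granzyme genes of chromosome 14. Gzmd, Gzmf and Gzmg had 0 reads in the 3 ovaries and in 8 of 10 tumors, and reached 9.09, 9.54 and 4.13 TPM in MP 1 and 29.5, 26.7 and 39.1 TPM in MP 5. Gzmc and Gzme, named after their values were seen, were at 5.45 and 3.65 TPM in MP 1 and at 22.99 and 15.53 TPM in MP 5. Together Gzmc to Gzmg held 212 reads in MP 1, 156 reads in MP 5, and 3 reads over the other 8 tumors, all of them in Gzmc. These genes are closely related copies, so how reads were split among them is uncertain and their sum is the firmer value: 31.9 TPM in MP 1 and 134 TPM in MP 5. The highest ovary sum was 0.402 TPM. MP 1 and MP 5 carry different IGO numbers. The sum of the CD3 chains was 0.596 TPM (10 reads) in MP 1 and 0.436 TPM (1 read) in MP 5, within the range of the other tumors. No member of this granzyme group passed the test over the groups (limma adjusted P between 0.686 and 0.765 with every gene tested).

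**Figure D4:**
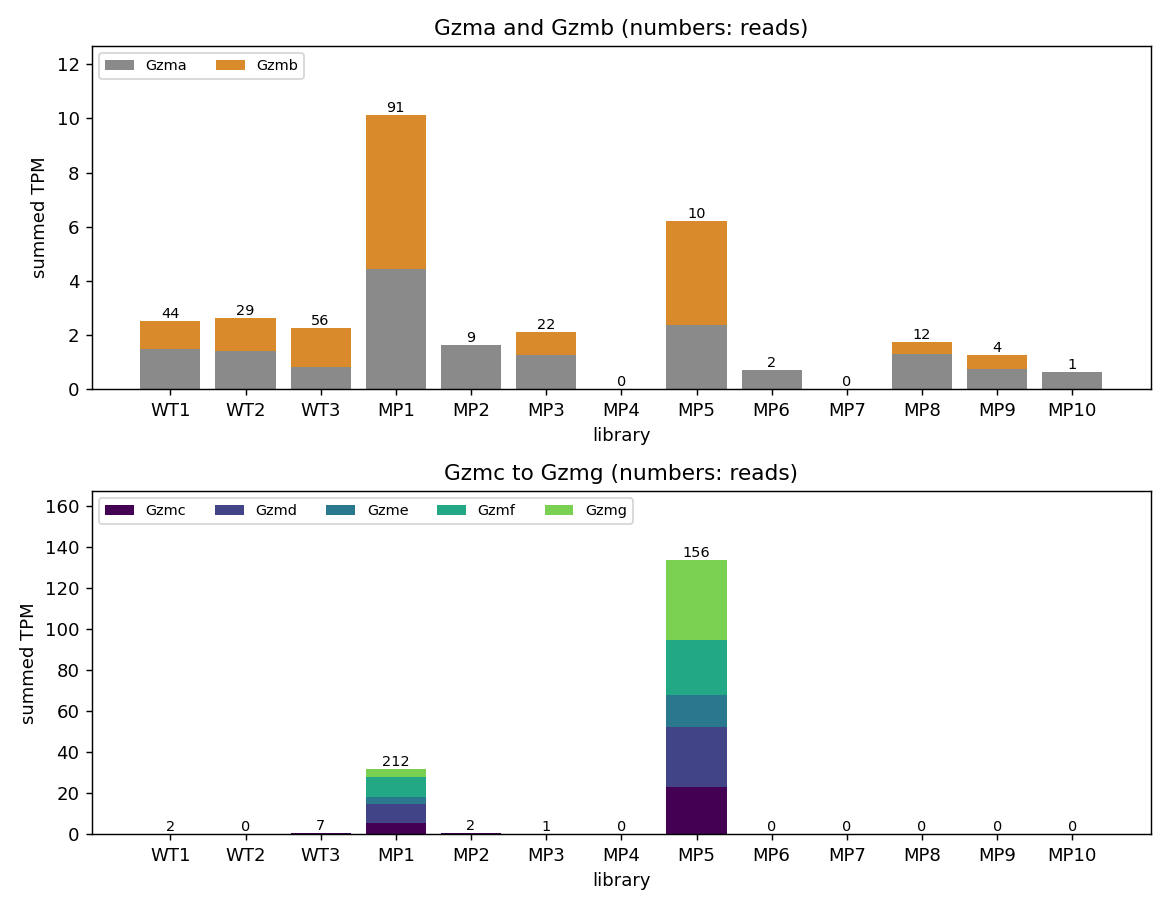
Summed TPM (vertical axis, from 0) of Gzma and Gzmb (top) and of Gzmc to Gzmg (bottom) in each library, stacked by gene, with the number of reads above each bar. MP 1 and MP 5 hold the highest bars in both panels, on 91 and 10 reads at the top and 212 and 156 reads at the bottom.

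The CD3 genes were also set against genes that all leukocytes share. The sum of the 3 CD3 genes was 4.26, 3.67 and 3.77 TPM in the ovaries and ran from 0 in MP 6 and MP 7 through a median of 0.416 to 1.08 TPM in MP 9. Ptprc, which encodes the pan-leukocyte antigen CD45, was at 4.63, 2.96 and 2.98 TPM in the ovaries and ran from 0.562 to 3.06 TPM in the tumors. A total of 8 of 10 tumors were below every ovary for Ptprc, which did not pass (log2 fold change -0.90, SE 0.36, limma adjusted P = 0.0920 among genes past the filter) but passed among the libraries with the IGO number of the ovaries (-1.11, limma adjusted P = 0.00409, where the median gene was at -1.19 and 57.3% were lower). Divided by Ptprc in the same library, the CD3 sum was 0.921, 1.24 and 1.26 in the ovaries and 0 to 0.557 in the tumors, with no overlap. The ratio depends on the gene it is taken to. Of the 10 pan-leukocyte genes listed, the groups did not overlap for 4 (Ptprc, Coro1a, Cd53 and Arhgdib) and overlapped for 6. Over Laptm5 the ratio was 0.0657 to 0.108 in the ovaries but 0.109, 0.253 and 0.181 in MP 1, 2 and 3, and over Vav1 it was 0.624 to 0.897 in the ovaries but 1.63 and 1.09 in MP 2 and MP 3. Over the sum of all 10 it was 0.0117 to 0.0210 in the ovaries and 0 to 0.00717 in the tumors. Cxcr6 divided by Ptprc was 1.73 to 2.11 in the ovaries and 0 to 0.386 in the tumors. The complement genes C1qa, C1qb and C1qc, made by macrophages, summed to 572 to 791 TPM in the ovaries and 189 to 803 TPM in the tumors, where 9 of 10 lay below every ovary and MP 5 lay above. These ratios are descriptions over members chosen with results known and were not tested.

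**Figure D5:**
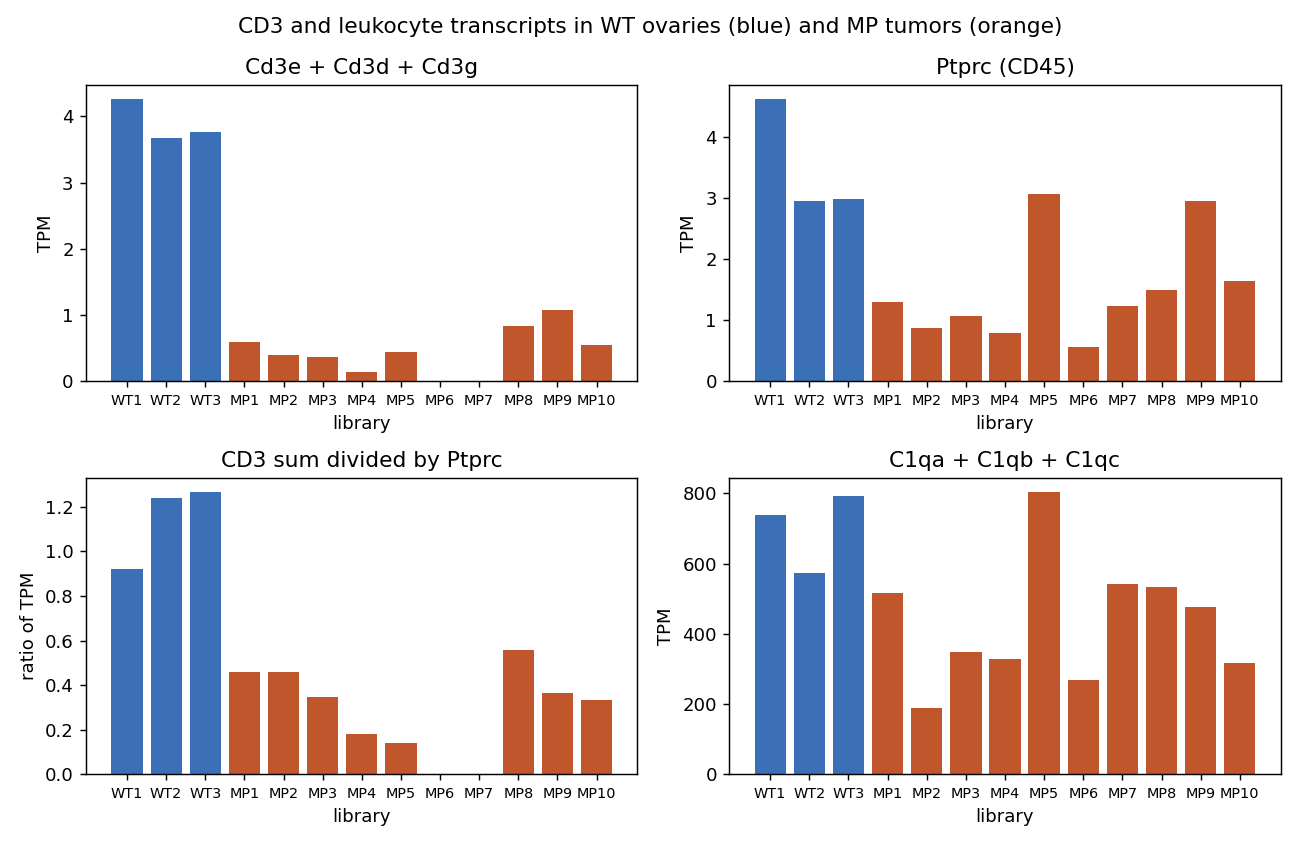
Bars from 0 give, for each library (WT ovaries blue, MP tumors orange), the summed TPM of the 3 CD3 genes, the TPM of Ptprc, the ratio of these, and the summed TPM of C1qa, C1qb and C1qc. The CD3 sum is 3.67 TPM or more in the ovaries and 1.08 TPM or less in the tumors, while 8 of 10 tumors for Ptprc and 9 of 10 for the C1q sum lie below every ovary.

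Other genes of the T cell receptor pathway were read from the same fits. Of 20 such genes, 9 were lower and 0 higher among all genes with a read, with a median log2 fold change of -0.61, against 11.0% lower and a median of -0.07 over all genes of that fit. Trbc1 and Trbc2, the constant regions of the receptor's beta chain, were at 2.61 to 3.78 and 5.96 to 9.05 TPM in the ovaries, and at 0 to 1.31 and 0 to 5.44 TPM in the tumors. Both fell, with log2 fold changes of -1.44 (SE 0.31) and -1.87 (SE 0.55) and limma adjusted P = 0.00538 and 0.0308 among genes past the filter. Zap70, the kinase that binds the phosphorylated CD3 chains, fell (log2 fold change -1.64, SE 0.27, limma adjusted P = 0.000702). Trac and Cd247, named after their values were seen, did not pass over all libraries. Trac, the constant region of the alpha chain, was at 3.83 to 5.19 TPM in the ovaries and 0 to 7.61 TPM in the tumors, highest in MP 5, and did not pass (limma adjusted P = 0.175), but passed within the IGO number of the ovaries (log2 fold change -2.04, limma adjusted P = 0.000510). Cd247, the zeta chain of the complex, was at 0.367 to 0.619 TPM in the ovaries and 0.0338 to 4.73 TPM in the tumors, 5 of which lay above every ovary (log2 fold change 0.39, limma adjusted P = 0.538). Its highest value, 4.73 TPM on 71 reads, was in MP 6, where the CD3 sum was 0. Lck, the kinase that phosphorylates those chains, was at 6.11 to 7.75 TPM in the ovaries and 0.606 to 15.6 TPM in the tumors, highest in MP 10, and did not pass over all libraries (limma adjusted P = 0.174) but passed within the IGO number of the ovaries (log2 fold change -1.95, limma adjusted P = 0.000226), where the median gene was at -1.19. After median-of-ratios scaling Zap70 and Trbc1 still passed (limma adjusted P = 0.00104 and 0.0263 with every gene tested) and Trbc2 did not (limma adjusted P = 0.269). Cd6, a T cell surface receptor, went the other way in level without passing over all libraries: it was at 0.317 to 0.377 TPM in the ovaries, at 4.65 TPM or more in 7 tumors and at 0.553 TPM or less in MP 4, MP 5 and MP 9 (log2 fold change 2.00, SE 0.84, limma adjusted P = 0.111). Within the IGO number of the ovaries, where 6.44% of all genes were higher, Cd6 was higher (log2 fold change 2.85, limma adjusted P = 0.000801). Of 7 genes of naive and memory T cells 3 were lower and 0 higher. Ccr7, a chemokine receptor for lymph node entry, was at 0.340 to 0.752 TPM in the ovaries and 0.182 to 4.85 TPM in the tumors, 8 of which lay above every ovary, and did not pass (log2 fold change 0.80, limma adjusted P = 0.229). Tcf7, a transcription factor of that program, was at 76.2 to 85.6 TPM in the ovaries, far above the CD3 genes on the same length-scaled measure, and at 3.63 to 64.16 TPM in the tumors (limma adjusted P = 0.0507 over all libraries and 0.000213 within the IGO number of the ovaries).

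Of 19 NK cell receptors and regulators, 10 were lower and 0 higher with every gene tested, with a median log2 fold change of -0.51, again against 11.0% lower and a median of -0.07 over all genes. Il2rb, the beta chain of the IL-2 and IL-15 receptor, was at 4.42 to 5.46 TPM in the ovaries and at 1.42 TPM or less in 9 tumors, but at 8.23 TPM (40 reads) in MP 4 (log2 fold change -1.78, SE 0.52, limma adjusted P = 0.0306 among genes past the filter). Klra9 and Cd160, both NK cell receptors, fell, with log2 fold changes of -1.25 and -0.99, and neither overlapped between the groups (limma adjusted P = 0.00206 and 0.00441 with every gene tested). Itga2, an integrin of NK cells that other cells also carry, was at 10.0 to 27.1 TPM in the ovaries and at 2.53 TPM or less in the tumors (log2 fold change -3.54, SE 0.44). Under median-of-ratios scaling Itga2 passed, while Il2rb, Klra9 and Cd160 did not (limma adjusted P = 0.136, 0.102 and 0.115 with every gene tested). Fcgr3, an Fc receptor that macrophages share, was the most abundant gene of this list, at 47.4 to 64.9 TPM in the ovaries and 16.4 to 74.0 TPM in the tumors, and did not pass. Of 10 granzyme and killing genes with reads, 1 was lower and 0 higher. Of 9 cytokine and chemokine genes 1 was lower: Ltb, lymphotoxin beta, at 2.67 to 3.22 TPM in the ovaries and 0 to 1.74 TPM in the tumors (log2 fold change -1.36, SE 0.30, limma adjusted P = 0.00680 among genes past the filter). The chemokines Ccl3, Ccl4 and Ccl5 overlapped between the groups and did not pass over all libraries, while Ccl3 and Ccl5 passed within the IGO number of the ovaries (limma adjusted P = 0.0252 and 0.00428, with a log2 fold change of -1.32 for Ccl5), where the median gene past the filter was at -1.19.

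Of 10 gamma delta T cell and innate lymphoid genes with reads, 7 were lower with every gene tested, against 11.0% of all genes. The gamma chain constant genes Tcrg-C1, Tcrg-C2 and Tcrg-C4 were at 1.53 to 4.81, 1.57 to 2.49 and 1.30 to 1.37 TPM in the ovaries. In the tumors they rested on 1, 4 and 2 reads in all. Of 8 regulatory T cell genes 2 were lower and 0 higher, and the lineage factor Foxp3, named after its values were seen, had 11 reads over the 3 ovaries and 8 over the 10 tumors, with means of 0.0512 and 0.0595 TPM. Tnfrsf4, which encodes the costimulatory receptor OX40, was above every ovary in 10 of 10 tumors, at 1.73 to 10.81 TPM against 0.159 to 1.63 TPM, and did not pass over all libraries (log2 fold change 1.48, SE 0.52, limma adjusted P = 0.0610) and had a limma adjusted P of 0.0491 within the IGO number of the ovaries among genes past the filter and 0.0931 with every gene tested. Lrrc32, a surface protein that activated regulatory T cells carry, was at 15.2 to 16.4 TPM in the ovaries and 0.0384 to 12.3 TPM in the tumors and fell (log2 fold change -2.39, SE 0.71, limma adjusted P = 0.0326). Of 16 ligands for T and NK cells, 3 were lower with every gene tested. Il7, a survival cytokine for T cells, fell from 2.40 to 3.49 TPM in the ovaries to 0.23 TPM or less in the tumors (log2 fold change -1.85, limma adjusted P = 3.51e-06 with every gene tested).

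Markers of other leukocytes are given because bulk tissue mixes them, with counts from the fit of every gene with a read, in which 11.0% of all genes were lower. Of 10 pan-leukocyte genes 1 was lower (Cd52, limma adjusted P = 0.0159) and the summed level of the list ran from 175 to 363 TPM in the ovaries and 54.8 to 253.9 TPM in the tumors, below every ovary in 8 of 10. Of 9 macrophage genes 0 passed, with summed levels of 1602 to 3949 TPM and 765 to 4041 TPM. Within the IGO number of the ovaries, where 57.3% of genes past the filter were lower, 8 of the 10 pan-leukocyte and 6 of the 9 macrophage genes were lower. Of 7 dendritic cell genes 5 were lower, among them Clec9a, a receptor of the dendritic cells that also carry Cd8a, which was at 6.15 to 8.53 TPM in the ovaries and 0.0346 to 1.17 TPM in the tumors. Of 8 B cell genes 1 was lower, and of 6 neutrophil genes 0 passed. Within the IGO number of the ovaries 3 of 4 B cell genes past the filter were lower. Of 5 neutrophil genes in that fit 2 were higher and 1 lower, where 6.44% of all genes were higher. Of 7 mast cell genes, a cell type that also makes granule proteases, 5 were lower. Of 12 ovarian somatic cell and oocyte genes 11 were lower, and of 9 epithelial genes 3 were lower and 0 higher. The part of these cell types in the levels of the 10 markers was not tested.

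Among the tumors alone, the 3 CD3 genes varied on few reads. The 5 non-member genes whose log2(TPM + 1) over the 10 tumors was most like the mean of the CD3 genes were Gm43338, Lrif1, Nespas, Gm44616 and Gm16577, with Pearson r of 0.888, 0.878, 0.867, 0.862 and 0.861 and Spearman rho of 0.918, 0.717, 0.869, 0.827 and 0.878. They were picked from 17277 genes, and all points share the depth of their libraries. MP 9 is the tumor farthest from the median, and MP 6 and MP 7, both with a CD3 sum of 0, are equally next. Without MP 9 and MP 6 r ran from 0.736 to 0.904, and without MP 9 and MP 7 from 0.725 to 0.873. Against the same CD3 mean, r was 0.729 for Cd4, 0.661 for Nkg7, 0.577 for Cxcr6, 0.506 for Cd2, 0.436 for Gzma, 0.356 for Cd8a and 0.303 for Gzmb, and it was 0.643 for Ptprc. Without MP 9 and MP 6 r was 0.640 for Cd4, 0.609 for Nkg7, 0.651 for Gzma, 0.347 for Cd8a and 0.334 for Gzmb, but 0.059 for Cxcr6, 0.086 for Cd2 and 0.285 for Ptprc. For these last genes r was 0.310, 0.101 and 0.462 without MP 9 alone, and 0.296, 0.354 and 0.530 without MP 9 and MP 7. With a CD3 support of 0 to 14 reads per tumor, these correlations describe the libraries only.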

How the data were processed

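RNA was measured by polyA-selected, single-end 76-bp RNA-seq in 3 WT ovaries and 10 MP tumors. The authors deposited TPM per gene and library, without pooling. The submitters' processing notes name FastQC 0.11.5, Trimmomatic 0.36, STAR 2.5.3a, featureCounts 1.6.3 and mm10, while the extract protocol names hg19, HTSeq and RPKM. Of the genes, 96.2% have the start and end of GENCODE M21 (GRCm38).

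Reads were worked back from TPM times length, a whole multiple of 1 step in 100% of values (tolerance 0.1). Values were fitted as log2(TPM + 1) with limma 3.58.1 (trend, robust) in R 4.3.3 without a covariate, with and without the filter. Scripts were tested on simulated data. Alternatives varied pseudocount, filter, scaling, depth, limma options, IGO number, replicate block and single libraries.

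The members and lists were chosen with earlier results of these data known. Named genes were, per list, the 3 most abundant and up to 4 with the smallest adjusted P past the threshold, with Ptprc, Cxcl16 and Cd48, and the 5 most like CD3. Replicate numbers did not pair libraries: same-numbered WT and MP libraries, from different animals, had deviations correlated at -0.10, -0.02 and 0.00. Libraries of 1 group differed beyond sampling noise (chi-square per degree of freedom of at least 25.8). P values measure the spread between libraries, which the labels call separate samples.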

Additional observations from a re-analysis of the deposited data

Results flagged for a closer look

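Among 86 genes looked at, 12 were flagged by a rule on the gap between the highest or lowest of the 10 tumors and the next. Its rate of 1 in 20, or 4.3 genes, is for normally spread values. Many genes here hold several tumors at 0 reads, so 4.3 is not a chance count for them. A gene with reads in 1 tumor only is flagged whatever its level, which holds for Tcrg-C1 and Cyp19a1 below. Of the 10 markers, Cd3e in MP 8 (0.280 TPM on 7 reads, next tumor 0.140 TPM) and Cd3g in MP 9 (0.460 TPM on 4 reads, next 0.213 TPM) were flagged, and both lay below every ovary. Il2rb in MP 4 was at 8.23 TPM on 40 reads, with the next tumor at 1.42 TPM. Gzmg in MP 5 was at 39.1 TPM on 45 reads, with MP 1 next at 4.13 TPM. H60b, a ligand of the NK receptor NKG2D, was at 8.48 TPM on 16 reads in MP 10. Tcrg-C1 was at 0.696 TPM in MP 10, on 1 read. Tpsb2, a mast cell protease, was at 2.19 TPM on 3 reads in MP 5. Among ovarian genes, Zp3 was at 2.60 TPM in MP 4, Lhcgr at 5.79 TPM in MP 10 and Cyp19a1 at 0.183 TPM in MP 7. Among epithelial genes, Cdh1 was at 7.15 TPM on 235 reads in MP 1 and Muc16 at 3.30 TPM on 231 reads in MP 9. The cause of these values was not tested.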

How the results depend on the processing

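At this depth 67 of 100 tumor values rest on at most 3 reads. Nkg7 passed in 25 of 43 fits, Cd4 in 4 of 43 and Cd2 in 2 of 17. Fits of every gene with a read under median of ratios, within the IGO number of the ovaries and with 1 library left out were added after seeing the data. Against 4 members lower past the filter on TPM as deposited, of which Cd3d, Cd3g and Cxcr6 pass the filter through the ovaries alone, 2 were lower with a pseudocount of 0.1, a mean TPM of at least 1 (5 members tested, without Cd3d and Cd3g), median-of-ratios scaling, quantile normalization, limma-voom on worked-back reads, or thinning to 3892690 reads (6 tested, without Cd3d), and 2 to 4 with 1 library left out. For all genes the counts were 2463 lower and 433 higher. Genes higher came to 1274 (median of ratios), 1904 (quantile) and 2729 (limma-voom), the share of higher among called genes going from 15.0% to 40.2%, 47.7% and 47.3%. Lower and higher came to 9902 and 1112 within the IGO number of the ovaries, 8534 and 894 with IGO number as a covariate, and 4140 and 12772 with limma-voom without a filter (3 of 10 members lower, against 5 with limma on every gene), an alternative chosen after seeing the data. Leaving out MP 1 and MP 5 was also chosen after seeing the data and, since they hold the most Gzmb, gives no test of Gzmb. With the replicate block 9803 genes were lower and 1087 higher. Cd4 was also lower with the block and with IGO number as a covariate (log2 fold change -1.33 in each). The block uses WT 1 to 3 and MP 1 to 3, and the numbers do not pair these animals. With 1 library left out, 1158 to 3264 genes were lower and 94 to 635 higher, and with every gene tested 2111 to 4527 and 102 to 536, with 3 to 6 members lower against 5. With every gene tested, 2790 genes were lower and 1048 higher under median of ratios, and 10701 and 950 within the IGO number of the ovaries. The sign of Gzma turned under median of ratios (0.31), quantile (0.64), limma-voom with and without the filter (0.50 and 0.51), thinning (0.86), and within the IGO number of the ovaries, with the covariate and with the block (0.52 each). Gzmb turned under quantile (0.17), and within the IGO number of the ovaries, with the covariate and with the block (0.069 each). None of these Gzma or Gzmb values passed. The cause was not tested.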
